A study of Homo sapiens with 8 samples.

Results

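HCC44 and H1975 are human lung adenocarcinoma cell lines. Their accessible chromatin was compared after treatment with ACBI1, to describe which differences between the lines remained once the degrader had acted. The comparison takes the 2 HCC44 and the 2 H1975 samples treated with ACBI1, 4 of the 8 samples of the study. The other 4 are the same lines with DMSO, the solvent, and serve here as the reference state. Every sample carries the genotype label WT. Treatment lasted 96 h in all groups, and the ACBI1 dose is labelled as 1 mM. The assay was ATAC-seq, which tags DNA that a transposase can reach, and the authors' deposited list of broad peaks was used for each sample. The number of reads behind each list is not known, so a missing peak is not a measurement of closed chromatin. The labels do not say whether replicates were separate cultures, so the spread between them may be technical.

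ACBI1 joins its targets to a ubiquitin ligase, which leads to their degradation. Its targets are the alternative SWI/SNF motor proteins SMARCA2 and SMARCA4 and the PBAF subunit PBRM1. SWI/SNF complexes slide and evict nucleosomes, and they are known above all for keeping enhancers open, while the promoters of housekeeping genes depend on them less. Lines from different tumours differ in their enhancers, and also in promoters that were switched off during development or tumour growth. Genes often silenced as blocks in cancer cells include the KRAB zinc finger genes of chromosome 19, which encode repressors of transposable elements, and the clustered protocadherins, which encode neural cell adhesion proteins.

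Merging the overlapping peaks of the 4 ACBI1 lists gave 35975 regions, against 69131 for all 8 lists. A region was called HCC44-only where both HCC44 samples and neither H1975 sample had a peak, and H1975-only in the reverse case. By this rule 4059 regions (11.3%) were HCC44-only and 3844 (10.7%) were H1975-only, while 16212 (45.1%) had a peak in all 4 samples. The first and the last base of each protein-coding gene, with 1 kb on each side, were taken as its boundaries. Of 19976 such genes, 452 (2.26%) had a boundary peak only in HCC44 and 597 (2.99%) only in H1975, and 10664 had one in all 4 samples. Among the 12625 genes with a boundary peak in at least 1 of the 4 samples, the line-only shares were 3.58% and 4.73%.

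The promoters below carry the results on named genes, and each is the list member with the strongest line-only peak at its start. They are 250 bases upstream of the annotated start, or fewer where another protein-coding gene begins first, from RefSeq on GRCh38.p14, written 5′ to 3′ with CG dinucleotides in capitals. ZNF582 (chr19:56393535-56393784, minus strand) stands for the H1975-only zinc finger genes. PCDHA11 (chr5:140868707-140868956, plus strand) stands for the H1975-only protocadherins and NKX2-1 (chr14:36520233-36520482, minus strand) for the lung lineage. HOXA13 (chr7:27200092-27200341, minus strand) and COL4A1 (chr13:110307158-110307283, minus strand) had a peak there only in HCC44. The COL4A1 stretch is the whole interval between COL4A1 and COL4A2, which are read away from each other.
ZNF582: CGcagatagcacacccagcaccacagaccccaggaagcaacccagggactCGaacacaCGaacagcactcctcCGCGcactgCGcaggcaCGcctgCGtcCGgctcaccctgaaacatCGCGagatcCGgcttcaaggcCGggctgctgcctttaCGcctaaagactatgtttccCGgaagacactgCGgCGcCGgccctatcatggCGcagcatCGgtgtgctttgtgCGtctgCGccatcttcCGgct
PCDHA11: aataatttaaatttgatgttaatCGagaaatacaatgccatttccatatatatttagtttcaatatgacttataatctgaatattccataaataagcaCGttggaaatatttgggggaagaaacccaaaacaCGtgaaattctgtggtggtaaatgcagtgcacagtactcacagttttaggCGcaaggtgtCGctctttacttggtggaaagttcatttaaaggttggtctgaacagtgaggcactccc
NKX2-1: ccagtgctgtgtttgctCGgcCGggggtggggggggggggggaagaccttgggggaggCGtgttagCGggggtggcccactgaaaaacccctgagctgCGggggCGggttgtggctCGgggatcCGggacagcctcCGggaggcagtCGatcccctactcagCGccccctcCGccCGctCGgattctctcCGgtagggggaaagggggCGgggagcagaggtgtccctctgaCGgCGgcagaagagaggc
HOXA13: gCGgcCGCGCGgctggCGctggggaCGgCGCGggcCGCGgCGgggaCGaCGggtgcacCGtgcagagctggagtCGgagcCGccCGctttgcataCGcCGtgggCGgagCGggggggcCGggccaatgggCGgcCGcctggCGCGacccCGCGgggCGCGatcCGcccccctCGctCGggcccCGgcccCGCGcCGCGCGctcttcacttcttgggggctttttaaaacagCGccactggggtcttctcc
COL4A1: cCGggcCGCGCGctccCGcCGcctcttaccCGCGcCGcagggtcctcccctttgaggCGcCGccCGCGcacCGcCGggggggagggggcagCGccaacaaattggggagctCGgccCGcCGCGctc

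CG dinucleotides are the sites of DNA methylation in mammalian promoters, and the stretches hold different numbers of them. PCDHA11 holds 5 CG in 250 bases, NKX2-1 holds 18, ZNF582 holds 23 and HOXA13 holds 40, while COL4A1 holds 20 in its 126 bases. They were also counted in the full 300-base promoter windows, from 250 bases before to 50 after the start. Promoters were classed on their own and not by the gene boundary calls, so their numbers differ from the gene counts given below. A median of 20 CG was found in 106 H1975-only zinc finger promoters of chromosome 19, and of 22 in 87 zinc finger promoters with peaks in all 4 samples. The 20 H1975-only protocadherin promoters had a median of 7 CG, against 22 over all 15812 promoters matched by gene. HCC44-only promoters had a median of 22.5.

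The 300-base windows were searched for 5 motifs on both strands. The letters were TGANTCA for AP-1, GGAATG for TEAD, TGACNNNGC for the antioxidant response element, TGACGTCA for the cyclic AMP response element and CCAAT for NF-Y, and none contains another. CCAAT was found in 60.4% of the H1975-only zinc finger promoters, 42.5% of the zinc finger promoters shared by all samples and 36.3% of all promoters. It is present in the printed stretches of HOXA13 and COL4A1 and in none of the other 3. AP-1 letters were found in 3.55% of the 282 HCC44-only promoters, 5.62% of the 463 H1975-only promoters and 5.76% of all. These are matches of letters and not measured binding sites.

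The lines did not differ in the size of their peak sets by more than the replicates did. The HCC44 ACBI1 samples held 26313 and 24862 peaks and the H1975 ACBI1 samples held 27682 and 22133. The HCC44 values lay between the H1975 values, with means of 25588 ± 1026 and 24908 ± 3924 (SD, n = 2 each). The log2 difference, HCC44 minus H1975, was 0.047 against an SD between replicates of 0.17 (exact permutation test, two-sided, p = 1). With 2 samples a line there are 6 arrangements, and the smallest p this test can give is 0.333. Covered length was 21.2 and 20.7 Mb in HCC44 and 22.02 and 14.86 Mb in H1975, so again the H1975 samples enclosed the HCC44 samples. Gene boundaries took 40.2% and 42.0% of peaks in HCC44 and 38.9% and 46.5% in H1975. The difference of -1.60 percentage points was smaller than the SD between replicates of 3.89 points. All 3 differences turned direction without H1975 replicate 2, the shortest list, to -0.11 and -0.071 on the log2 scale and 2.18 points. Median peak width was 688 and 724 bp in HCC44 and 695 and 603 bp in H1975.

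The positions of the peaks differed more than their number. On average 72.6% of the peaks of a sample were overlapped by a peak of a sample of the other line, with the 8 directed pairs between 65.3% and 78.8%. Between replicates of a line the mean was 87.9%, with the 4 directed pairs between 76.7% and 97.7%, so the 2 ranges overlapped. The lowest replicate value was the share of H1975 replicate 1 peaks found in H1975 replicate 2. The strength of the lists differed as well: the median of the authors' −log10 q was 26.3 and 25.4 in HCC44 and 40.7 and 42.2 in H1975. Their median fold enrichment, a ratio over background, was 4.97 and 4.49 in HCC44 and 6.13 and 7.37 in H1975. A minimum of 5, used below, thus removes more of the HCC44 lists. The part of list strength in the counts below was not tested, but the counts by threshold are given beside them.

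Distal regions carried most of the remaining difference. Of 24181 regions away from gene boundaries, 3494 (14.4%) were HCC44-only and 3189 (13.2%) were H1975-only, and 6795 (28.1%) had a peak in all 4 samples. Of 11794 boundary regions, 565 (4.79%) were HCC44-only, 655 (5.55%) were H1975-only and 9417 (79.8%) were in all 4. Seen from a single line, 28.3% of the distal regions found in both HCC44 replicates were HCC44-only, against 5.51% of its boundary regions. In H1975 the shares were 29.3% and 6.36%. Among distal regions, 46.8% of the HCC44-only, 49.0% of the H1975-only and 50.2% of the common ones lay inside a protein-coding gene.

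**Figure D1:**
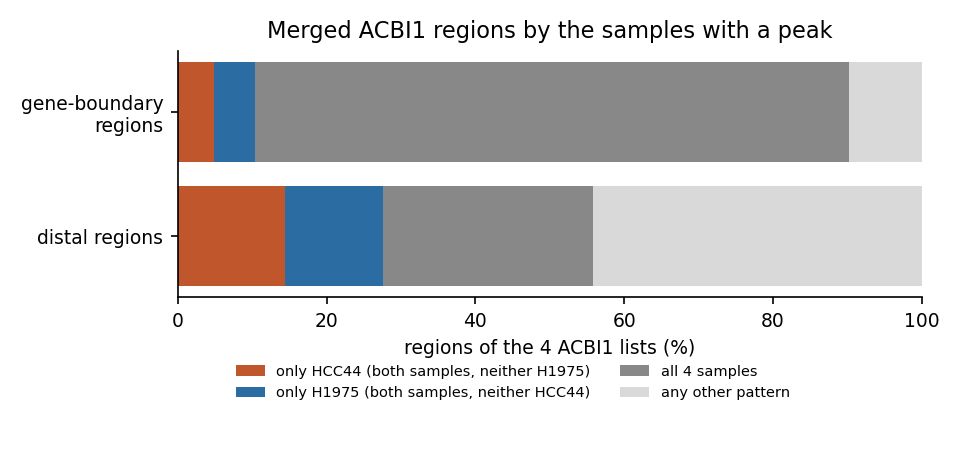
Each bar shows the merged regions of the 4 ACBI1 lists, at gene boundaries (11794) and distal (24181), as percent by the samples that had a peak. Peaks in all 4 samples were found in 79.8% of boundary regions and 28.1% of distal regions.

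Line-only calls were more frequent among weak regions than among strong ones. Regions were ranked by −log10 q within each line, and the strongest and weakest 20% were compared. Among distal regions of the weakest 20%, 49.9% in HCC44 and 38.7% in H1975 were line-only. Among those of the strongest 20% these shares were 3.17% in HCC44 and 11.2% in H1975, and at boundaries 0.443% and 2.78%. The balance between the lines moved with the threshold. With a minimum −log10 q of 20 there were 1590 HCC44-only and 3770 H1975-only regions, and with a minimum fold enrichment of 5 there were 1187 and 7464. Keeping the 22133 strongest peaks of every list gave 3629 and 3940. HCC44 regions thus made up 51.4% of the line-only regions in the full lists and 29.7%, 13.7% and 47.9% under these settings. Leaving out H1975 replicate 2 raised the H1975-only count to 7218. Leaving out H1975 replicate 1 or HCC44 replicate 2 raised the HCC44-only count to 6269 or 6397. Neither line can be said to have had more regions of its own.

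The strongest distal regions of each line had the same pattern with DMSO. In HCC44 the first was chr8:127311543-127312101, 101346 bp from POU5F1B, an expressed retrogene of the OCT4 gene. Its fold enrichment, the authors' ratio over background, was 12.1 and 9.41 in the HCC44 samples with ACBI1. Another lay inside FRMD3 (chr9:83537989-83538924), with fold enrichments of 6.96 and 5.79. In H1975 the first was chr19:20051802-20052823, 12297 bp from ZNF682, with fold enrichments of 7.09 and 9.50. The other 4 named H1975 regions were a pair on chromosome 7 near the zinc finger gene ZNF722 and 1 inside each of ZFP28 and ZNF442 on chromosome 19. All 10 named distal regions had a peak in both DMSO samples of their own line and in neither of the other.

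In the full lists, the state of these regions with DMSO differed by line. Over the merge of all 8 lists, 4037 regions were HCC44-only with ACBI1. Of these, 1986 (49.2%) had been HCC44-only with DMSO, 519 (12.9%) had peaks in all 4 DMSO samples and 784 (19.4%) in no DMSO sample. Of 3806 regions that were H1975-only with ACBI1, 1441 (37.9%) had been H1975-only with DMSO, 1825 (48.0%) had peaks in all 4 DMSO samples and 152 (3.99%) in none. The H1975-only set thus held more regions that both lines had with DMSO and that HCC44 lacked with ACBI1. A change of line was rare: 5 HCC44-only regions with ACBI1 had been H1975-only with DMSO, and 2 the reverse. With only the 22133 strongest peaks of each list, 19.6% of the HCC44-only regions had been HCC44-only with DMSO. This was lower than the matching H1975 share under that setting, so the order of the lines turned.

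**Figure D2:**
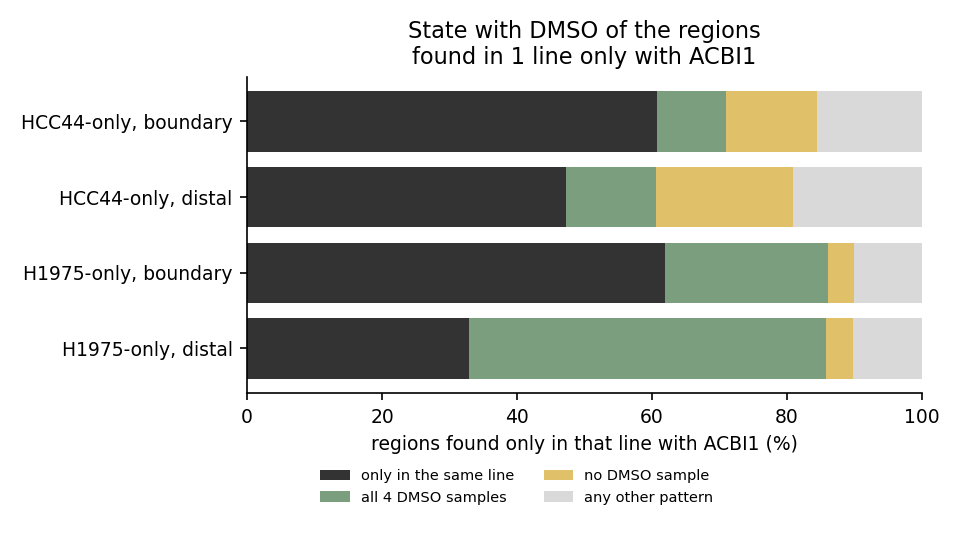
Bars show, for regions found only in HCC44 or only in H1975 with ACBI1, the percent by state in the 4 DMSO samples, at boundaries and distal. Peaks in all 4 DMSO samples were found in 52.9% of distal H1975-only regions and 13.3% of distal HCC44-only regions.

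Read forward from DMSO, most differences between the lines ended in no peak at all. Of 13165 HCC44-only DMSO regions, 71.1% had no peak in any ACBI1 sample, 15.1% were still HCC44-only and 1.52% had become common to all 4 samples. Of 6844 H1975-only DMSO regions, 64.9% had none, 21.1% were still H1975-only and 1.84% had become common. The background was lower: of 29084 regions shared by the 4 DMSO lists, 25.1% had none with ACBI1. This was 37.4% of the distal and 2.26% of the boundary ones. The matching line-only shares were 73.4% distal and 43.4% at boundaries in HCC44, and 69.5% and 18.0% in H1975. At boundaries 34.4% (351 of 1021) of the HCC44-only DMSO regions were still HCC44-only, and 13.5% of the distal ones. In H1975 the shares were 65.7% (406 of 618) and 16.6%. The share of line-only among regions that were either line-only or common was 49.3% with DMSO and 49.5% with ACBI1 in distal regions, and 13.9% and 11.5% at boundaries. Within each line, the DMSO and ACBI1 calls rest on separate samples, but the lists differ in length and strength, and no test was run on these shares.

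Gene calls were set beside their DMSO state in the same way, and here more calls were the same in both treatments. Of the 452 HCC44-only genes, 308 were HCC44-only with DMSO and 47 had been common to all 4 DMSO samples. Of the 597 H1975-only genes the counts were 395 and 128. With DMSO 769 genes (3.85%) were HCC44-only and 549 (2.75%) H1975-only, and 40.1% and 71.9% of them kept that call with ACBI1, while 290 and 65 had no boundary peak with ACBI1. With a minimum −log10 q of 20, 277 genes were HCC44-only and 764 H1975-only. With a fold enrichment of at least 5 the counts were 101 and 3368. That minimum lies above the median of both HCC44 lists and below the median of both H1975 lists. Leaving out a sample gave up to 677 HCC44-only genes, the value without H1975 replicate 1.

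Zinc finger genes of chromosome 19 made up the largest block of H1975-only genes. Of 240 listed genes, 111 (46.25%) were H1975-only, against 2.99% of all protein-coding genes, and 88 were common to the 4 samples. ZNF574 was the HCC44-only member and 34 had no boundary peak in any ACBI1 sample. By sample, 94 and 91 members had a boundary peak in HCC44 and 204 and 203 in H1975, so the lines did not overlap. With DMSO the numbers were 92 and 90 in HCC44 and 205 and 204 in H1975, nearly the same as with ACBI1. Of the 111 genes, 108 were H1975-only with DMSO too, and 99 had the peak at their start. Of the rest, only ZNF565 and ZNF404 had a matched start. ZNF565 had a peak there in all 4 ACBI1 samples and ZNF404 in none. For the others the start was not checked. The 111 genes shared 109 regions, so most had a peak of their own. The count ran from 105 to 114 over all settings and left-out samples.

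These peaks were strong. The median H1975-only zinc finger gene of chromosome 19 had its boundary peak at percentile 87.9 of −log10 q within the H1975 lists, against 47.2 for all H1975-only genes and 76.8 for common genes. All of the 10 H1975-only genes with the strongest peaks were of this kind, 9 zinc finger genes and the divergent transcript ZNF470-DT listed as protein-coding. ZNF582 had fold enrichments of 9.11 and 11.7 in the H1975 samples and no boundary peak in HCC44. Within 50 kb of it HCC44 had 1 and 0 peaks and H1975 had 5 and 5, and with DMSO the counts were 0 and 0 against 5 and 5. ZNF43, a KRAB repressor, had fold enrichments of 7.95 and 11.0, and 0 and 0 surrounding peaks in HCC44 against 4 and 4 in H1975. ZNF708 had fold enrichments of 11.5 and 13.2, and 0 and 0 against 3 and 2. ZNF724, ZNF470, ZNF682, ZNF808, ZNF135 and ZNF329 followed, all H1975-only with DMSO as well.

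Zinc finger genes of chromosome 19 lie in tandem clusters, and the calls were uneven over them. Grouping genes less than 0.5 Mb apart gave 20 groups. Between ZNF565 and ZNF573 (chr19:36182060-37779586), 20 of 24 genes were H1975-only and 4 were common. Between ZNF264 and ZNF446 (chr19:57191500-58489533), 25 of 41 were H1975-only and 14 common. Between ZNF101 and ZNF254 (chr19:19668153-24129968) the H1975-only count was 21 of 37, and between ZNF175 and ZNF331 (chr19:51571283-53580269) it was 22 of 39. In other groups the balance differed. Between ZNF653 and ZNF791 (chr19:11483429-12633834) 11 of 25 were H1975-only and 11 common. Between ZNF575 and ZNF180 (chr19:43530835-44500522) only 2 of 23 were H1975-only and 16 were common, and between ZNF414 and ZNF846 (chr19:8509678-9786160) the counts were 1 and 10 of 13. In the first 4 of these groups, each HCC44 sample had boundary peaks at as many genes with ACBI1 as with DMSO, to within 1 gene.

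The same stretches stood out without regard to genes. The 5 longest runs of neighbouring regions with peaks of H1975 alone all lay on chromosome 19. The longest, chr19:19821238-23548286, spanned 3.73 Mb with 65 regions and 31 zinc finger genes. It had 64 and 46 peaks in the H1975 samples with ACBI1 and 98 and 96 with DMSO, and 0 in all 4 HCC44 samples. The next, chr19:52335868-53358798, had 46 and 45 peaks in H1975 and again 0 in all 4 HCC44 samples. A run at chr19:56367848-57241074 holds PEG3 and ZIM2, a pair of imprinted genes, with 22 and 18 peaks in H1975. A run at chr19:53463173-54024978 holds ZNF331 and the calcium channel subunit genes CACNG6, CACNG7 and CACNG8. Around CACNG7 the H1975 samples had 11 and 12 peaks with ACBI1 and 10 and 10 with DMSO, and HCC44 had 0 in each sample. DNA copy number was not measured in these files, and loss of these stretches in HCC44 cannot be told apart from a lack of accessible chromatin. HCC44 did have boundary peaks at the 88 common zinc finger genes of the same chromosome.

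Over chromosome 19, 517 of 2343 regions (22.1%) were H1975-only, more than on any other chromosome, and 5.72% were HCC44-only. Within 50 kb of the listed zinc finger genes 45.4% of 559 regions were H1975-only and 1.43% HCC44-only. In the rest of chromosome 19 the shares were 14.7% and 7.06%, and on all other chromosomes 9.89% and 11.7%. Distal regions near these genes were H1975-only in 46.8% of cases and boundary regions in 44.1%. Zinc finger genes of other chromosomes were added after their values were seen: 18 of 237 (7.59%) were H1975-only, against 2.99% of all genes, 2 were HCC44-only and 171 were common. The highest HCC44-only shares were 18.8% on chromosome 21 and 18.4% on chromosome 13, and the lowest was 4.81% on chromosome 22. Copy number again was not measured.

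**Figure D3:**
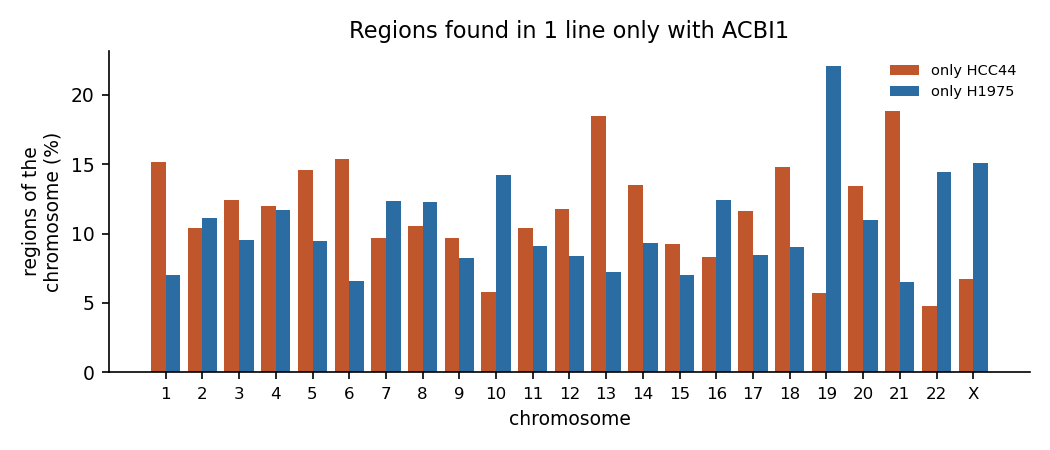
Bars show, for each chromosome, the percent of its merged ACBI1 regions found only in HCC44 or only in H1975. Chromosome 19 has the highest H1975-only share, 22.1%, and chromosomes 21 and 13 the highest HCC44-only shares, 18.8% and 18.4%.

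Clustered protocadherins were the other large H1975-only group. Each gene of the alpha, beta and gamma arrays on chromosome 5 has its own promoter, from which cells pick a few to display an individual adhesion code. Of 53 genes, 26 were H1975-only, 6 were common and 18 had no boundary peak in the ACBI1 samples, while PCDHA9 was HCC44-only. By array the H1975-only counts were 8 of 15 alpha, 8 of 16 beta and 10 of 22 gamma genes. By sample, 8 and 7 members had a boundary peak in HCC44 and 34 and 33 in H1975, and with DMSO 9 and 6 against 34 and 34. The call was shared with DMSO in 24 of the 26 genes. The beta array had boundary peaks at 0 genes in both HCC44 samples and at 8 in both H1975 samples. PCDHA11 had the strongest peak, with fold enrichments of 12.1 and 11.0 in H1975. Around PCDHGA1, the first gamma gene, HCC44 had 4 and 4 peaks and H1975 had 19 and 18, and with DMSO 7 and 6 against 20 and 21. The 26 genes shared 25 regions, and windows of neighbouring genes overlap. The count was 16 with a minimum −log10 q of 20 and 40 with boundaries of 5 kb. It was 26 or 27 with any 1 sample left out, which can only hold or raise such a count.

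**Figure D4:**
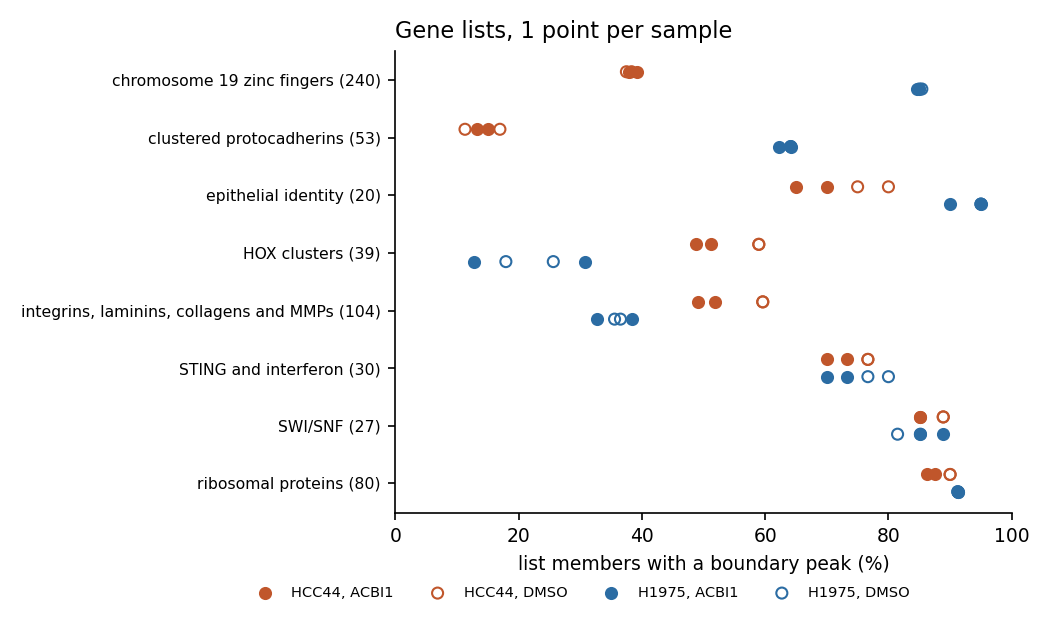
Each point is a sample, placed at the percent of a list's members with a boundary peak, with filled points for ACBI1, open points for DMSO and list sizes in brackets. HCC44 and H1975 points lie apart for the zinc finger, protocadherin, HOX and matrix lists in both treatments, and together for the STING and interferon list.

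HOX genes differed in the other direction. They encode the homeobox factors that set position along the body axis. Of 39 genes, 9 (23.1%) were HCC44-only, against 2.26% of all genes, 4 were common and HOXC13 was H1975-only. HOXA5, HOXA13, HOXB6, HOXB7, HOXB8, HOXB13, HOXC11 and HOXD8 were among the HCC44-only genes. The 9 genes share 7 regions, and HOXB7 and HOXB8 rest on the same peak. By sample, 19 and 20 members had a boundary peak in HCC44 and 12 and 5 in H1975, and with DMSO 23 and 23 against 7 and 10. Around HOXA5 HCC44 had 12 and 11 peaks and H1975 had 5 and 4, and with DMSO 15 and 13 against 4 and 5. Both HCC44 samples had more surrounding peaks than both H1975 samples at 34 of the 39 genes, against 16.1% of all genes, but the genes of a cluster lie within each other's windows. HOXA13 had a boundary peak in all 4 DMSO samples and in the 2 HCC44 samples alone with ACBI1. The HOX peaks were moderate, with fold enrichments from 2.95 to 4.68 at the 9 genes, and 0 of the 9 passed a minimum fold enrichment of 5. That minimum lies above the median of both HCC44 lists. The count was 4 with gene starts only and 15 without H1975 replicate 1.

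Matrix genes gave more HCC44-only than H1975-only calls. The list holds integrins, which are matrix receptors, laminins and collagens, which build the matrix, and matrix metalloproteinases, which cut it. Of 104 genes, 14 (13.5%) were HCC44-only, against 2.26% of all genes, 2 were H1975-only and 31 were common. The HCC44-only genes were 9 of 44 collagens, 3 of 12 laminins, 1 of 26 integrins and 1 of 22 metalloproteinases. Integrins also gave 1 H1975-only gene, so they did not share the difference. The 14 genes rest on 11 regions. By sample, 51 and 54 members had a boundary peak in HCC44 and 40 and 34 in H1975. All of the collagen IV genes, COL4A1 to COL4A6, were HCC44-only, with ACBI1 and with DMSO. Collagen IV forms the network of basement membranes, and its genes lie in head-to-head pairs. Each pair shared 1 peak in HCC44: fold enrichments were 4.19 and 4.18 at COL4A1 and COL4A2, 4.39 and 4.19 at COL4A3 and COL4A4, and 4.10 and 3.97 at COL4A5 and COL4A6. The 6 genes are therefore 3 regions, on chromosomes 13, 2 and X. Around COL4A5 HCC44 had 1 and 2 peaks and H1975 had 0 and 0, and with DMSO 4 and 5 against 0 and 0.

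The other HCC44-only matrix genes were COL16A1, COL24A1, COL26A1, the laminin genes LAMA4, LAMB1 and LAMC3, the integrin gene ITGAM and the gelatinase gene MMP2. LAMA4 had fold enrichments of 5.50 and 4.80 in HCC44, and 3 and 3 surrounding peaks against 3 and 2 in H1975, so its difference lay at the boundary. Of the 14 genes, 12 were HCC44-only with DMSO. ITGB2 and COL8A1 were H1975-only with ACBI1, and both had a boundary peak in all 4 DMSO samples. With a minimum −log10 q of 20 the list held 7 HCC44-only genes. With a minimum fold enrichment of 5, above the median of both HCC44 lists, it held 0. COL26A1 had a peak at its annotated start in all 4 samples, so its call depends on which start is used.

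Epithelial markers held 3 H1975-only genes of 20 (15%), against 2.99% of all genes, and 0 HCC44-only genes. The keratin genes KRT7, KRT8, KRT18 and KRT19 and the adhesion gene EPCAM had boundary peaks in all 4 ACBI1 samples, among 12 epithelial markers that did. ST14, which encodes the epithelial protease matriptase, ESRP1, an epithelial splicing regulator, and OVOL2, a repressor of mesenchymal genes, were H1975-only. ST14 and ESRP1 were H1975-only with DMSO too, while OVOL2 had a boundary peak in all 4 DMSO samples. Their mean percentiles of −log10 q in H1975 were 13.5 at ST14, 18.8 at OVOL2 and 56.9 at ESRP1. By sample, 14 and 13 epithelial markers had a boundary peak in HCC44 and 19 and 18 in H1975. CDH1, which encodes E-cadherin, had a boundary peak in 1 of 2 HCC44 samples and in both H1975 samples, and had one in all 4 DMSO samples. Around GRHL2, an epithelial pioneer factor, HCC44 had 1 and 0 peaks and H1975 had 5 and 3, and with DMSO 5 and 7 against 11 and 10. Of 17 mesenchymal markers 0 were line-only and 8 were common, VIM, ZEB1 and FN1 among them. Of 12 blood and stromal markers 7 had no boundary peak in any ACBI1 sample, PTPRC, CD3E, PECAM1 and VWF among them. The other 5 did: SPI1, CD68, CD14 and ACTA2 were common and PDGFRB had a peak in some samples.

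Lung lineage markers gave 1 H1975-only gene of 24 (4.17%), near the 2.99% of all genes. By sample, 12 and 11 of them had a boundary peak in HCC44 and 12 and 12 in H1975, and with DMSO 16 and 16 against 13 and 13. The H1975-only gene was NKX2-1, a lung lineage factor. Its boundary peak had fold enrichments of 2.72 and 4.23 in H1975, and it had 2 and 1 surrounding peaks in HCC44 against 6 and 5 in H1975. With DMSO a boundary peak was listed in both H1975 samples and in 1 HCC44 sample. Of the 24 lung markers 11 were common, FOXA1, FOXA2 and SFTPC among them, and 11 had no boundary peak in any ACBI1 sample, SFTPA1, SFTPB, SCGB1A1 and AGER among them. SOX2, an airway and stem cell factor, was H1975-only in both treatments, with 0 and 0 surrounding peaks in HCC44 and 2 and 3 in H1975 with ACBI1. FGFR2, a receptor of fibroblast growth factors, had a boundary peak of fold enrichment 8.09 and 7.76 in H1975 and 0 peaks within 50 kb in all 4 HCC44 samples. Among 82 developmental factors 6 (7.32%) were HCC44-only, namely LHX3, LHX4, PAX9, SOX5, SOX7 and SOX18, against 2.26% of all genes. Another 5 (6.10%) were H1975-only, namely IRX2, LHX6, NKX2-1, NKX6-1 and SOX2, against 2.99%. LHX4 had a peak at its annotated start in all 4 samples, and its call rests on the outer ends of the gene. PAX9, on chromosome 14 close to NKX2-1, had fold enrichments of 5.06 and 4.23 in HCC44, so the neighbours were called for opposite lines.

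Several gene lists held few line-only members after ACBI1 or none. Of 30 STING and interferon genes, the pathway named in the study's title, 20 were common, 8 had no boundary peak in any ACBI1 sample and 2, IFIT3 and CXCL8, had one in some samples. STING1 had fold enrichments of 4.17 and 3.60 in HCC44 and 4.62 and 4.52 in H1975. Its percentiles of −log10 q within the lists were 35.8 and 18.0 in HCC44 and 26.5 and 3.02 in H1975. Fold enrichments are therefore not read as a difference between the lines. Of 27 SWI/SNF genes 22 were common, SMARCA4 among them, with fold enrichments of 5.24 and 4.21 in HCC44 and 6.52 and 8.66 in H1975. The SMARCA4 percentiles were 64.6 and 56.5 in HCC44 and 88.2 and 90.0 in H1975. Of 21 AP-1 and TEAD genes, which encode enhancer-binding factors, the coactivator YAP1 and targets such as CCN1 and CCN2, 18 were common. The 36 complex I genes gave 32 common. Of 80 ribosomal protein genes, 68 were common and RPL8 and RPL14 were H1975-only, both with a boundary peak in all 4 DMSO samples. With shares of line-only genes of 2.26% and 2.99% over all genes, 0 in a list of about 30 is near the background. For 12 of 16 antigen presentation genes no list used here held a peak within 50 kb, and they were not compared. In the NRF2 list the line-only gene was AKR1C1, an aldo-keto reductase, which was HCC44-only in both treatments. It was 1 of 20 genes (5%), against 2.26% of all genes.

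The strongest HCC44-only genes were scattered over chromosomes. CIDEB, a lipid droplet protein gene, and LTB4R2 and LTB4R, leukotriene B4 receptor genes, shared 1 peak on chromosome 14 with fold enrichments of 4.61 and 4.69. SMOC1, a secreted calcium-binding matrix protein gene, had 4.93 and 4.36, and DAB2, an endocytic adaptor gene, had 6.61 and 6.02. DZIP1 had 6.17 and 5.96, with 6 and 6 surrounding peaks in HCC44 and 2 and 1 in H1975. The others were NUDT19, SLC46A3, CHST2 and BANP. All 10 were HCC44-only with DMSO as well. BANP had a peak at its annotated start in all 4 samples. HCC44 replicate 2 had 1 peak in or within 50 kb of BANP, so this peak reached both that start and the boundary. The BANP call therefore depends on which start is used. Their boundary peaks lay between percentiles 87.4 and 97.2 of −log10 q, while the median HCC44-only gene lay at percentile 32.5.

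Counts of surrounding peaks picked out other genes. TRIO, which encodes a guanine nucleotide exchange factor, had boundary peaks in all samples, but 25 and 25 peaks in or within 50 kb of it in HCC44 and 12 and 10 in H1975. AHRR, the repressor of the aryl hydrocarbon receptor, had 18 and 18 against 6 and 7, and CAMTA1, a calmodulin-binding transcription activator, had 24 and 23 against 14 and 10. PDE10A, a cyclic nucleotide phosphodiesterase, had 14 and 10 against 1 and 1. GATA5 had 10 and 9 against 2 and 1 and no boundary peak in any sample. On the H1975 side, ZNF83 had 0 and 0 peaks in HCC44 and 10 and 10 in H1975, ZNF211 had 0 and 0 against 8 and 8, and the linker histone gene H1-3 had 4 and 4 against 12 and 13. With DMSO all 8 of these genes had the same order, with counts from 28 and 27 against 15 and 15 at TRIO to 5 and 5 against 14 and 14 at H1-3. These genes were chosen for this gap, so the values are a description. Over all genes 16.1% had more surrounding peaks in both HCC44 samples and 14.9% in both H1975 samples.

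**Figure D5:**
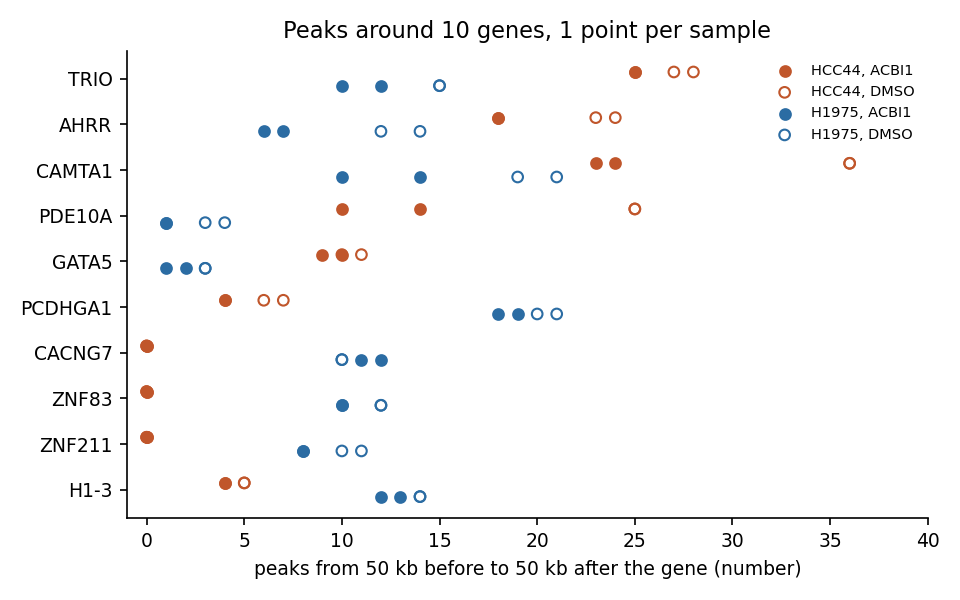
Each point is a sample, placed at the number of peaks in or within 50 kb of the gene, with filled points for ACBI1 and open points for DMSO. In 5 genes all HCC44 points lie above the H1975 points of the same treatment and in 5 below, with 0 peaks in every HCC44 sample at CACNG7, ZNF83 and ZNF211.

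The longest runs of regions with HCC44 peaks alone held 10 to 16 regions, against 18 to 65 for H1975. The first, chr6:163554240-166008867, held 16 regions around QKI, an RNA-binding protein gene, and PDE10A, with 16 and 11 peaks in HCC44 with ACBI1. With DMSO it held 29 and 29 peaks in HCC44 and 8 and 5 in H1975, so H1975 had peaks there with the solvent. Another, chr8:127311543-127632486, held 16 regions around POU5F1B upstream of MYC, with 12 and 14 peaks in HCC44. A run at chr5:16488949-16813405 around RETREG1 and MYO10, the gene of an unconventional myosin of filopodia, held 11 and 7. The run at chr14:21748956-22003197 lies among variable segments of the T cell receptor alpha locus, with 8 and 8 peaks in HCC44 with ACBI1 and 4 and 2 with DMSO. H1975 had 0 and 0 there with ACBI1 and 3 and 0 with DMSO. Peaks in this run were therefore more numerous in HCC44 with ACBI1 than with DMSO, unlike the other 4 runs of that line.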

How the data were processed

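ATAC-seq was run on 8 samples, 2 per line and treatment. Per the labels, library PCR took 11 cycles. Reads were aligned with BWA to hg38, per the submitters' processing notes. The peak caller and its filters are not given in the sources used here. The authors deposited 1 list per sample with a fold enrichment (a ratio over background), −log10 p-values and q-values and a score, the last of which was not used. These values can depend on depth and background, which are not known per list, so they served to rank or filter peaks within a list.

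Peaks overlapping by at least 1 bp were merged, regions and genes were called by the samples with a peak, and gene positions came from RefSeq GRCh38.p14, without chromosome Y. Sample values were compared by exact permutation tests. Alternatives were minimum −log10 q of 20, fold enrichment of 5, equal list lengths, joining at 1200 bp, 50% overlap, chromosomes 1 to 22 and X, windows of 5 kb, gene starts, a replicate block and leaving out each sample.

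The members and the 21 gene lists were chosen with earlier results of these data known. Named genes were line-only list members, for each line the 10 line-only genes with the highest percentile of −log10 q and the 5 with the largest gap in surrounding peaks (at least 1 Mb apart). The 5 strongest distal regions and 5 longest runs per line were named likewise. Other genes in the text are members of these lists given as examples. Genes on chromosome 19 were grouped, and zinc fingers of other chromosomes counted, after their values were seen. Promoters matched 15812 of 19976 genes. Python 3.11.15, numpy 2.4.6, pandas 2.3.3, scipy 1.17.1 and matplotlib 3.10.9 were used, and the functions were tested on simulated lists. Some items are not reported here.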

Additional observations from a re-analysis of the deposited data

Results flagged for a closer look

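BANP, which encodes a nuclear factor that binds unmethylated CG-rich promoters, was named above for an HCC44-only boundary call. At its annotated start all 4 ACBI1 samples had a peak, and in HCC44 replicate 2 the same peak reached the boundary. The peaks in or within 50 kb of BANP turned their order between treatments. HCC44 had 8 and 7 such peaks and H1975 3 and 3 with DMSO, while with ACBI1 HCC44 had 2 and 1 and H1975 3 and 3. The mean of HCC44 minus the mean of H1975 with ACBI1 was -1.5 peaks. This difference between treatments was not tested.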

How the results depend on the processing

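Of the 19 results that answer the comparison, 75 of 108 values under other settings were counted as the same, 28 moved and 5 turned direction. For differences in sample values, the same means only the same direction. For counts it means a value inside a wide band around the one reported, so a clearly different count can still be called the same. For shares it means a value inside a binomial confidence interval, which treats regions as independent although they are not replicates. For the overlap difference it means a value within the SD of the pairs between lines. The 75 include the replicate block, which repeats the reported values by design. The reversals were in differences smaller than the replicate spread. With a minimum −log10 q of 20 the difference in peak number was -0.25, in covered length -0.027 (both log2) and in boundary share 4.72 points. With a minimum fold enrichment of 5 the first pair were -0.93 and -0.94. With samples left out the ranges were -0.11 to 0.21, -0.071 to 0.50 and -5.39 to 2.18 points.

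The minimum −log10 q of 20 gave 1590 HCC44-only regions, 277 HCC44-only genes, 16 H1975-only protocadherins and 7 HCC44-only matrix genes. The minimum fold enrichment of 5 gave 1187 and 7464 line-only regions, 5793 regions in all 4 samples, 101 and 3368 genes, 0 HOX and 0 matrix genes, and -22.1 points for the overlap difference reported as -15.3. Gene starts alone gave 4 HOX genes and windows of 5 kb gave 40 protocadherins. The share of HCC44-only ACBI1 regions that were HCC44-only with DMSO was 53.1%, 51.7% and 19.6% with the q minimum, the fold minimum and equal numbers. For H1975 it was 35.8%, 44.8% and 33.4%, so with equal numbers the order of the lines turned. Of HCC44-only DMSO regions 9.69% and 7.42% were still so with the q and fold minimum. Of H1975-only ones 30.9% were with the fold minimum and 27.1% with equal numbers. The share of line-only regions at boundaries, 15.4%, was 20.8% and 36.1% with the q and fold minimum, 28.2% with 5 kb and 9.36% with gene starts. The cause of these moves was not tested.

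With 1 sample left out, HCC44-only regions numbered 4200 to 6397, H1975-only regions 4221 to 7218 and HOX genes 9 to 15. The shares already line-only with DMSO ran from 40.2% to 48.2% in HCC44 and from 28.8% to 36.7% in H1975, those still line-only from 15.3% to 19.4% and from 21.5% to 30.0%, and the boundary share from 12.6% to 14.5%. Fewer samples make the line-only rule easier to meet. Of 55 named genes 49 lost the call with the fold minimum, 28 with the q minimum and 25 with gene starts. With a left-out sample 0 lost it, but a line-only call cannot be undone that way, so this 0 was fixed in advance. Alternatives for the gene lists and named genes were chosen after seeing the data. Equal numbers give no value for peak number. Replicate numbers were not shown to pair samples: presence differences between replicates correlated at -0.0088 over 2 pairs, and with the replicate block the difference in peak number was 0.047 (exact permutation test, two-sided, p = 1). Depth in reads is unknown, so weak peaks missing from 1 line are the least certain calls.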
